A study of Mus musculus with 4 samples.

Results

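Wnt pathway components and targets were examined in long-read RNA sequencing of cultured mouse neural stem cells. The group held 10 genes, chosen by symbol: Lrp6, Znrf3, Axin2, Apc, Gsk3b, Nkd1, Ctnnb1, Tcf7l1, Tcf7l2 and Lef1. Of these, 9 had an entry in the count table, among 14949 genes with an entry, and all 9 passed the filter on low counts, which left 9882 genes. Axin2 and Znrf3 had at most 4 reads in the control library, so they passed through the other libraries. Lef1 was not analysed here as a gene. Axin2 was selected because its reads were higher in the libraries given Cre mRNA, so every ratio to the control library below is a description without a test. A fit over all 4 libraries is given further on, and since it draws on the control as well it is not independent of that choice.

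Canonical Wnt signalling turns on the stability of beta-catenin. Without a Wnt ligand, a destruction complex built on the scaffolds Axin and Apc holds beta-catenin for phosphorylation by casein kinase 1 and Gsk3, and the protein is degraded. Binding of a ligand to Frizzled and Lrp6 inactivates the complex, and beta-catenin then joins TCF/LEF factors on DNA. Axin2, Nkd1, Znrf3 and Lef1 are classical targets that feed back on the pathway. In the embryonic neocortex the pathway acts on the proliferation and regional identity of radial glia, the stem cells of this tissue.

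The study asked whether Tut1, the enzyme that extends U6 snRNA with uridines, acts on mRNA splicing in neural stem cells. Primary cells from the neocortex of mid-gestation mouse embryos, grown with bFGF and EGF, carried floxed alleles and were given lipid nanoparticles (LNP), and total RNA was sequenced on the Nanopore platform as PCR-amplified cDNA. The 4 libraries were Tut1f/f with empty LNP (the control), Tut1f/f with Cre mRNA (the Tut1-labelled library), Trp53f/f with Cre mRNA (the Trp53-labelled library) and Tut1f/f;Trp53f/f with Cre mRNA (the Tut1/Trp53-labelled library), all at 3 days. The labels write p53 for Trp53 and title the control wild type. There was 1 library of each kind, and Cre came from mRNA in the particles, so deletion rests on how many cells took it up. The control differed from the Cre mRNA libraries in both cargo and gene status, and no library held Trp53f/f or double-floxed cells with empty LNP. Values below are given in the order of this list.

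The libraries held between 2863392 and 4244467 reads that named a gene, and 1 read was worth between 0.25 and 0.335 CPM, the reads per 1000000 gene reads after TMM scaling. With 1 library of each kind there is no replicate check. The intervals given are of counting alone and treat each read as independent. Amplified reads that carry no molecular identifier cannot be taken as separate molecules, so these intervals may be too narrow. In bulk samples, fewer cells of a type and less RNA per cell cannot be told apart. Total reads of Tut1 did not follow the labels, with 37, 11, 14 and 27 reads, or 9.26, 3.67, 4.12 and 9.04 CPM, so the Trp53-labelled library was low and the Tut1/Trp53-labelled library near the control. Trp53 had 175, 67, 10 and 19 reads, lowest in both libraries labelled for it. Reads from outside a deleted exon would still count for either gene, and reads over the deleted exon were not analysed here, so these totals check the labels only in part. The study reports efficient Tut1 deletion in Tut1f/f cells given Cre mRNA, measured over the deleted exon by qPCR or Nanopore sequencing. Xist, transcribed from the inactive X chromosome of female cells, had 0, 44, 49 and 0 reads. Female cells were thus seen only in the Tut1- and Trp53-labelled libraries, so the sex of the donor embryos differed between libraries as well. In comparisons across this difference it cannot be told apart from cargo and gene status. All 8 markers of radial glia and neural stem cells had reads, with a summed level between 11812 and 13159 CPM, most of it Fabp7 with between 9613 and 11246 CPM. Of 5 markers of microglia and blood, 1 had an entry, with 6 reads in the control and 0 in the others. None of the 4 endothelial markers had one. The 2 of 5 fibroblast and mural markers with an entry summed to between 2.002 and 5.36 CPM, and the 2 of 4 of choroid plexus and hem to between 0.335 and 5.26 CPM.

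The comparison of each Cre mRNA library with the control was read by a ratio rule. It took a CPM ratio of 2-fold or more, with an exact 95% interval that did not hold 1, as a difference. Of the 9 genes, 7 were counted as higher and 0 as lower in the Tut1-labelled library, where 13.1% of all 9882 genes were higher and 12.8% lower. In the Trp53-labelled library the same 7 were higher and 0 lower, against 13.2% and 14.3% of all genes. In the Tut1/Trp53-labelled library 5 were higher and 0 lower, against 10.1% and 9.94% of all genes. The median log2 ratio of the 9 genes was 1.37, 1.56 and 1.26 in the 3 libraries, beside 0.02, 0.02 and -0.02 over all genes. These comparisons share the control library. Nothing is read from the counts, since the group was assembled around a gene that was high in this contrast.

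**Figure D1:**
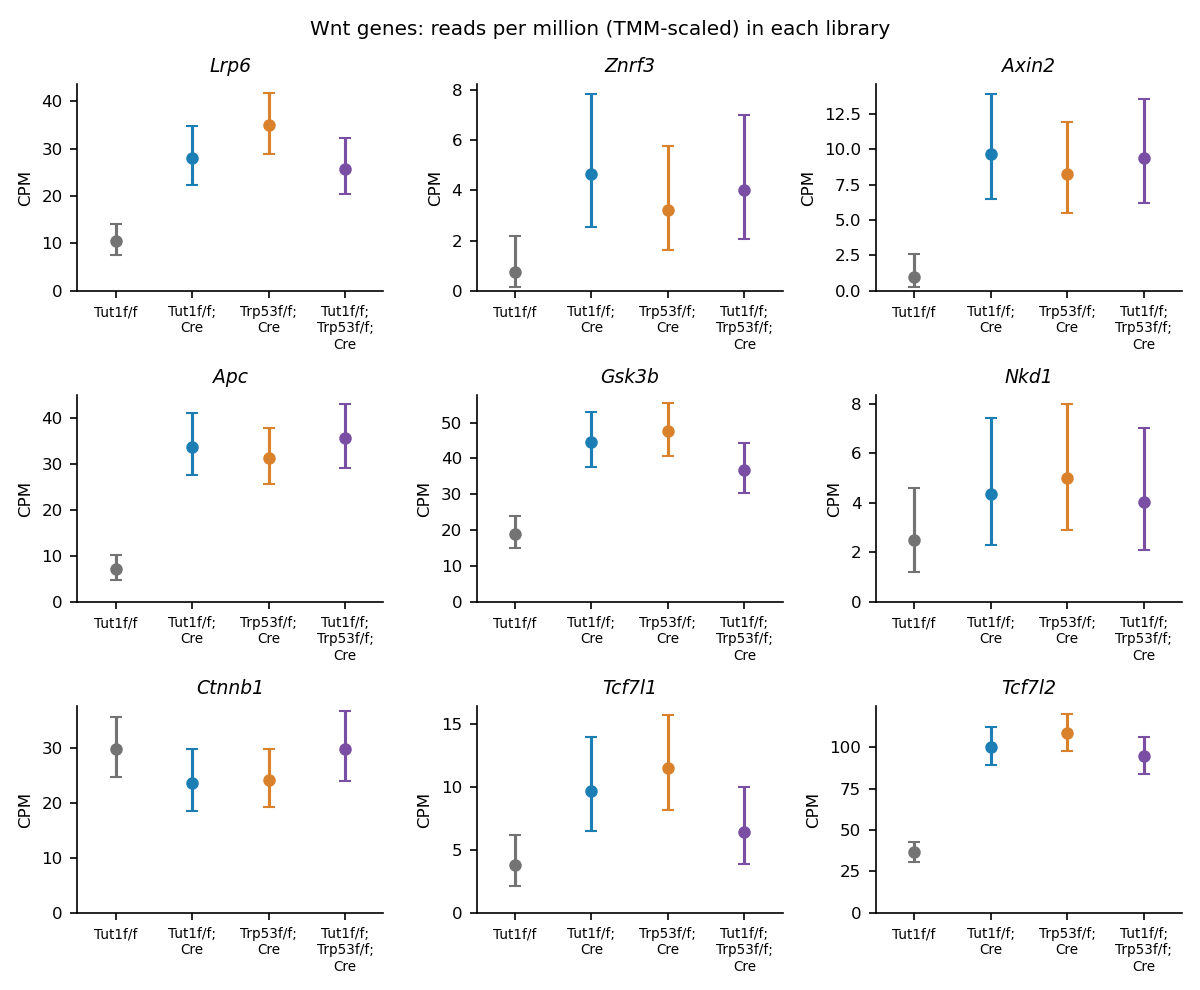
Level of each Wnt gene in each library, in TMM-scaled CPM (y axis from 0), with the library on the x axis. Points are single libraries and bars are exact Poisson 95% intervals. The control is the lowest point in every panel but that of Ctnnb1, and its interval lies below those of all 3 Cre mRNA libraries for Lrp6, Axin2, Apc, Gsk3b and Tcf7l2.

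Among the receptors, Lrp6, the co-receptor of Frizzled, had 42, 84, 119 and 77 reads, or 10.5, 28.05, 35.0 and 25.8 CPM. The control was the lowest of the 4, and its interval (7.57 to 14.2 CPM) lay below those of the others. Lrp6 was 2.67-fold (1.82 to 3.96), 3.33-fold (2.32 to 4.85) and 2.45-fold (1.66 to 3.66) above the control. Znrf3, a membrane ubiquitin ligase that removes Frizzled from the cell surface, had 3, 14, 11 and 12 reads. Its level was 0.751 CPM (0.155 to 2.19) in the control and between 3.23 and 4.67 CPM in the others. The ratios to the control were 6.23 (1.74 to 33.8), 4.31 (1.14 to 24.1) and 5.35 (1.44 to 29.6), wide because the control held 3 reads.

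Of the destruction complex, Axin2, the inducible scaffold, had 4, 29, 28 and 28 reads. These were 1.001 CPM (0.273 to 2.56) in the control, 9.68 CPM (6.48 to 13.9) in the Tut1-labelled library, 8.23 CPM (5.47 to 11.9) in the Trp53-labelled library and 9.38 CPM (6.23 to 13.6) in the Tut1/Trp53-labelled library. The order was thus Tut1, Tut1/Trp53, Trp53 and control, and the first 3 did not differ beyond their intervals. The ratios to the control were 9.67 (3.397 to 37.9), 8.23 (2.88 to 32.3) and 9.37 (3.28 to 36.8). Apc, the other scaffold, had 28, 101, 106 and 106 reads, or 7.01, 33.7, 31.2 and 35.5 CPM. It was 4.81-fold (3.14 to 7.60), 4.45-fold (2.91 to 7.01) and 5.07-fold (3.31 to 7.98) above the control, and the 3 Cre mRNA libraries overlapped.

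Gsk3b, the kinase of the complex, had 76, 134, 162 and 110 reads, or 19.0, 44.7, 47.6 and 36.8 CPM. It was 2.35-fold (1.76 to 3.16) and 2.50-fold (1.90 to 3.33) above the control in the first 2 Cre mRNA libraries. In the Tut1/Trp53-labelled library its 1.94-fold ratio (1.43 to 2.63) fell short of the 2-fold limit. Nkd1, which binds Dishevelled and restrains the pathway, had 10, 13, 17 and 12 reads. Its intervals overlapped in all 4 libraries, and ratios to the control of 1.73 (0.703 to 4.42), 1.998 (0.864 to 4.88) and 1.61 (0.636 to 4.15) were not distinguishable from 1 at this depth by named entries.

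At the level of transcription, Ctnnb1, which encodes beta-catenin, passed the ratio rule in no library, like Nkd1 by named entries. It had 119, 71, 82 and 89 reads, or 29.8, 23.7, 24.1 and 29.8 CPM, with overlapping intervals in all 4 libraries. Its ratios to the control were 0.796 (0.585 to 1.08), 0.810 (0.604 to 1.08) and 1.001 (0.752 to 1.33). Tcf7l2, a TCF factor, had 146, 300, 369 and 283 reads, or 36.5, 100.2, 108.5 and 94.8 CPM, and was 2.74-fold (2.242 to 3.36), 2.97-fold (2.45 to 3.62) and 2.59-fold (2.12 to 3.19) above the control. Tcf7l1, a TCF factor known chiefly as a repressor, had 15, 29, 39 and 19 reads. It was 2.58-fold (1.34 to 5.18) and 3.06-fold (1.65 to 5.97) above the control in the first 2 Cre mRNA libraries, and 1.70-fold (0.816 to 3.58) in the Tut1/Trp53-labelled library, which did not pass.

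Markers of other cell types moved with some of these levels. The 5 oligodendrocyte lineage markers, among which Tcf7l2 is not counted, summed to 351, 589, 692 and 467 CPM, mostly Olig2 with 249.7, 464.4, 574.3 and 359.3 CPM. Olig1 had ratios to the control of 1.32, 1.26 and 1.15, Pdgfra of 0.928, 0.9503 and 0.908, and Sox10 of 2.57, 1.18 and 1.24, and Mbp had at most 7 reads in a library. Olig2 was also present in the control and is expressed by some neural stem cells in culture with growth factors. Of the 8 radial glia and neural stem cell markers, Hes1 was 3.398-fold, 3.14-fold and 3.01-fold above the control, Sox9 2.38-fold, 2.502-fold and 1.81-fold, Nes 2.23-fold, 2.13-fold and 1.42-fold, and Vim at 0.609, 0.504 and 0.488 of it. Pax6 had ratios of 2.29, 1.88 and 1.87 and Sox2 of 1.82, 1.88 and 1.27, while those of Fabp7 and Slc1a3 lay between 0.974 and 1.14. The 3 astrocyte markers with an entry summed to 49.3, 12.02, 7.06 and 31.1 CPM. Within them Aldh1l1 had 187, 16, 11 and 71 reads, S100b 10, 16, 10 and 21, and Aqp4 0, 4, 3 and 1. The 4 neuronal markers with an entry summed to 87.3, 81.1, 72.6 and 87.1 CPM. Their part in the result was not tested.

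Transcript length moved with the comparison too. Over the 1976 tested genes with the longest annotated transcripts, from 5003 nt, the median log2 ratio to the control was 0.56, 0.57 and 0.41, with a pseudocount of 0.5 CPM. Over the 1976 genes from 1758 to 2726 nt it was -0.30, -0.31 and -0.23. Apc, Lrp6, Gsk3b and Znrf3 belong to the longest of these groups. Relative to the median of genes of similar length, in 20 bins and chosen after seeing the data, Lrp6 was 1.36-fold, 1.64-fold and 1.41-fold above the control and Gsk3b 1.20-fold, 1.24-fold and 1.11-fold. Apc had ratios of 2.45, 2.20 and 2.91, and Axin2, whose longest transcript has 4260 nt, had 9.36, 8.13 and 9.64. Tcf7l2 had 2.78, 2.87 and 2.63. The part of length in the result was not tested further.

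**Figure D2:**
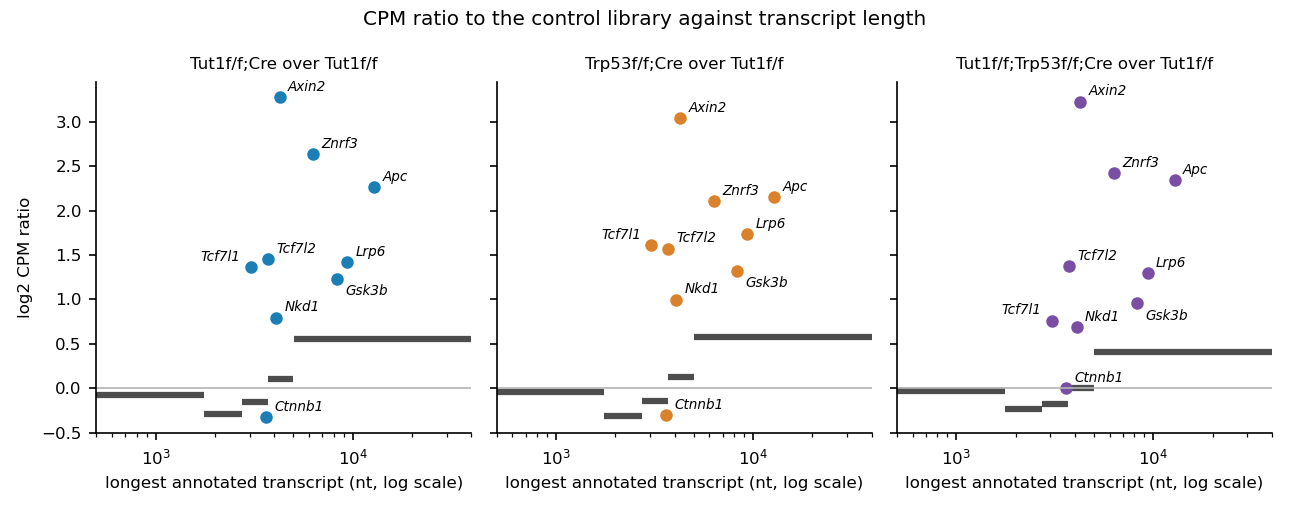
Log2 CPM ratio to the control library (y axis) against the longest annotated transcript of the gene in nt (x axis, log scale), 1 panel for each Cre mRNA library. Points are the 9 Wnt genes and grey bars are medians of 5 equal groups of tested genes by length, with a pseudocount of 0.5 CPM and drawn up to the axis limits. The bar of the longest genes stands highest, at 0.56, 0.57 and 0.41, and every Wnt gene but Ctnnb1 lies above all 5 bars of its panel.

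Axin2 was then examined by isoform. Axin2 (ENSMUSG00000000142) spans GRCm38 chromosome 11, 108920349 to 108950783, plus strand. All of its 89 reads were listed under 2 entries, each taken from its suffixed name as a variant of a short annotated transcript of 2 exons at the 5′ end. The variant of Axin2-204 (ENSMUST00000140821, 826 nt, 108920800 to 108923583) had 3, 17, 20 and 22 reads, and the variant of Axin2-206 (ENSMUST00000144511, 692 nt, 108921648 to 108923494) had 1, 12, 8 and 6. Both annotated transcripts begin translation at 108923288, at the start codon of the full transcript Axin2-201, and are annotated to end within its first coding block, which runs to 108924102. The coding stretches, from GENCODE M21, are shown because the entries are named for these transcripts, and capitals mark the bases beyond the 207 that both share.
Axin2-204: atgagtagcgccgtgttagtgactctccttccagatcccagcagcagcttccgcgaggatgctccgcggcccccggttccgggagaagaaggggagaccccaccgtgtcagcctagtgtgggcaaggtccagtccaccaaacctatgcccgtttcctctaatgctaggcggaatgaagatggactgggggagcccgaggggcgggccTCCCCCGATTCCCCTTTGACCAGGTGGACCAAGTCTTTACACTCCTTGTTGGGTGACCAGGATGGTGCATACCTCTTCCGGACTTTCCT
Axin2-206: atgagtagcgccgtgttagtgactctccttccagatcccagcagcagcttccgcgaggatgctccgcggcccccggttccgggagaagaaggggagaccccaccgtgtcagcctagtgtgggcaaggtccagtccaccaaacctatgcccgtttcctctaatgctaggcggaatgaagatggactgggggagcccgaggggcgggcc
The table does not give the exons of a variant, so how far these isoforms run beyond the annotated ends is not known. Axin2-204 made up 75.0% of Axin2 reads in the control (Wilson 95% interval 30.1 to 95.4), which rests on 4 reads, and 58.6% (40.7 to 74.5), 71.4% (52.9 to 84.7) and 78.6% (60.5 to 89.8) in the others.

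The 3′ end of Axin2 had reads of its own, listed under entries that named no gene but a position given to 1000 bases. Of 8 such entries inside Axin2, 6 touched its exons. The 3 entries at 108949000 or beyond, at the end of the gene, held 29, 52, 67 and 34 reads, or 7.26, 17.4, 19.7 and 11.4 CPM, against 4, 29, 28 and 28 reads of the named entries. The control was again lowest, but the ratios to it were 2.39 (1.49 to 3.91), 2.71 (1.73 to 4.35) and 1.57 (0.928 to 2.67), smaller than for the named entries. The entry with most reads, at 108950000, had 21, 26, 33 and 19 reads, and its ratios were 1.65 (0.894 to 3.09), 1.85 (1.04 to 3.36) and 1.21 (0.616 to 2.37). One entry at 108949000 had 1, 19, 22 and 14 reads, while the other there had 7, 7, 12 and 1. Over the 3 entries the Tut1/Trp53-labelled library was below the Trp53-labelled library, at 0.578 (0.371 to 0.886).

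When unnamed entries on exons were added to each gene, an alternative chosen after seeing the data, Axin2 had 39, 93, 107 and 69 reads. Its ratios to the control were then 3.18 (2.17 to 4.75), 3.22 (2.22 to 4.78) and 2.37 (1.58 to 3.602) in place of 9.67, 8.23 and 9.37. Apc gained most, to 505, 840, 920 and 785 reads, with ratios of 2.22 (1.99 to 2.48), 2.14 (1.92 to 2.39) and 2.08 (1.86 to 2.33). Lrp6 had ratios of 1.79 (1.49 to 2.17), 2.19 (1.84 to 2.62) and 1.74 (1.44 to 2.10), and Tcf7l2 of 2.37 (1.98 to 2.84), 2.50 (2.10 to 2.98) and 2.17 (1.81 to 2.60). Nkd1 passed in the first 2 with this count, at 2.57 (1.26 to 5.46), 2.17 (1.06 to 4.64) and 1.85 (0.858 to 4.11). Gsk3b fell short of 2-fold in the first, at 1.86 (1.65 to 2.10), with 2.001 (1.78 to 2.25) and 1.43 (1.26 to 1.62) in the others. Ctnnb1 stayed near 1 with 0.818 (0.603 to 1.10), 0.820 (0.612 to 1.09) and 1.02 (0.770 to 1.36). By this count 6, 8 and 4 of the 9 genes passed the ratio rule as higher, beside 14.2%, 14.1% and 10.1% of all genes. Relative to all reads 6, 4 and 4 passed, beside 10.7%, 10.5% and 9.21% of all genes. Unnamed entries carry no strand, so reads of an overlapping or antisense transcript would be counted as well. They took 17.2% of reads in the control and 27.3% to 30.2% in the others, and relative to all reads the Axin2 ratios were 2.87, 2.91 and 2.30.

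**Figure D3:**
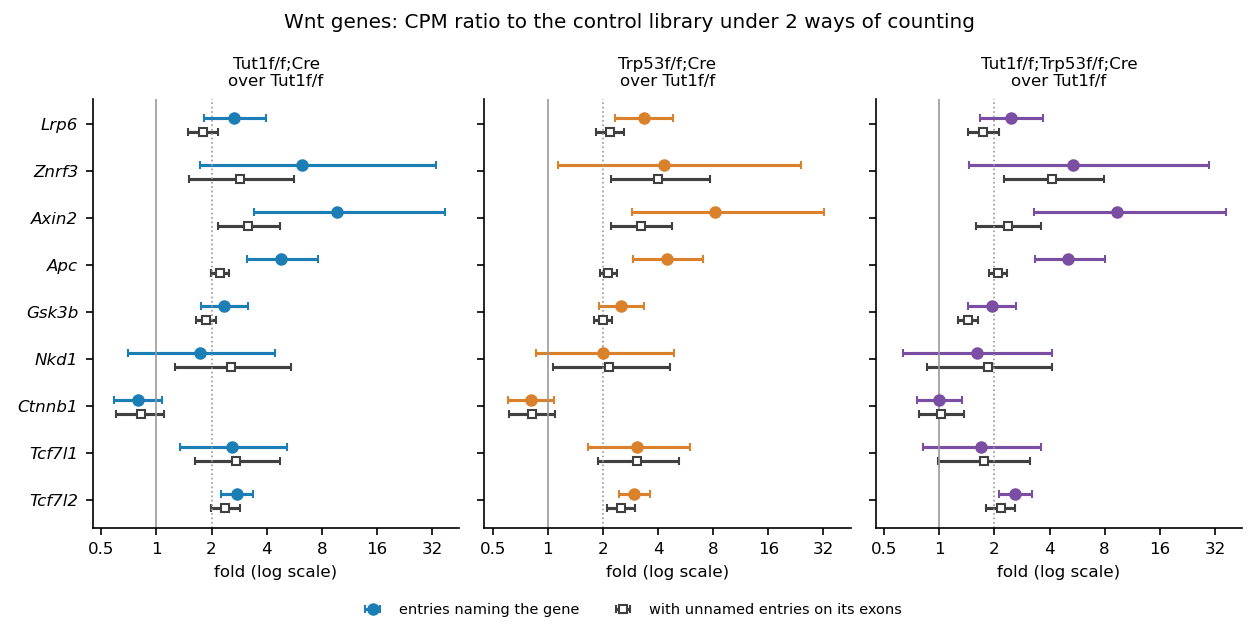
Ratio of each Wnt gene's CPM to the control library (x axis, log scale) in the 3 Cre mRNA libraries. Filled circles count only entries that name the gene, open squares add unnamed entries on its exons, bars are exact 95% counting intervals, and the lines mark 1 and 2. The open squares of Axin2 sit at 3.18, 3.22 and 2.37, left of its circles at 9.67, 8.23 and 9.37, while Ctnnb1 lies at or below 1.02 by both counts.

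The 3 Cre mRNA libraries were compared with each other, which the choice of Axin2 did not use. By the ratio rule 0 of the 9 genes were higher or lower in any of the 3 pairs. Of all genes, 2.14% were higher and 1.24% lower in the Tut1-labelled than in the Trp53-labelled library. In the Tut1/Trp53-labelled library 4.07% were higher and 3.01% lower than in the Trp53-labelled library, and 2.06% were higher and 2.52% lower than in the Tut1-labelled library. With a background of a few percent, 0 of 9 is not a result about these genes. The intervals show what the depth allows. For Axin2 the ratios were 1.18 (0.675 to 2.05), 1.14 (0.650 to 1.995) and 0.968 (0.555 to 1.69), so a difference of about 2-fold or less could not be told from none. For Tcf7l2, with most reads, they were 0.923 (0.790 to 1.08), 0.873 (0.745 to 1.02) and 0.946 (0.801 to 1.12), and for Apc 1.08 (0.816 to 1.43), 1.14 (0.862 to 1.51) and 1.05 (0.794 to 1.40).

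Lower levels in the Tut1/Trp53-labelled than in the Trp53-labelled library were seen for 3 of the 9 genes whose interval excluded 1 without reaching 2-fold. Of all 9882 genes, 16.2% were lower and 16.9% higher by that looser criterion, and 3 of 9 is too few to set against these shares. Tcf7l1 had a ratio of 0.555 (0.303 to 0.984), Lrp6 of 0.737 (0.546 to 0.990) and Gsk3b of 0.773 (0.601 to 0.991). With unnamed entries on exons the ratios were 0.569 (0.355 to 0.897), 0.794 (0.675 to 0.934) and 0.714 (0.638 to 0.7995). These are single libraries, and the total Tut1 reads of both did not follow their labels. Ctnnb1 was at 0.983 (0.705 to 1.37), 1.24 (0.905 to 1.69) and 1.26 (0.910 to 1.74) in the 3 pairs, and Znrf3 and Nkd1 had intervals that reached beyond 2-fold in at least 1 pair.

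**Figure D4:**
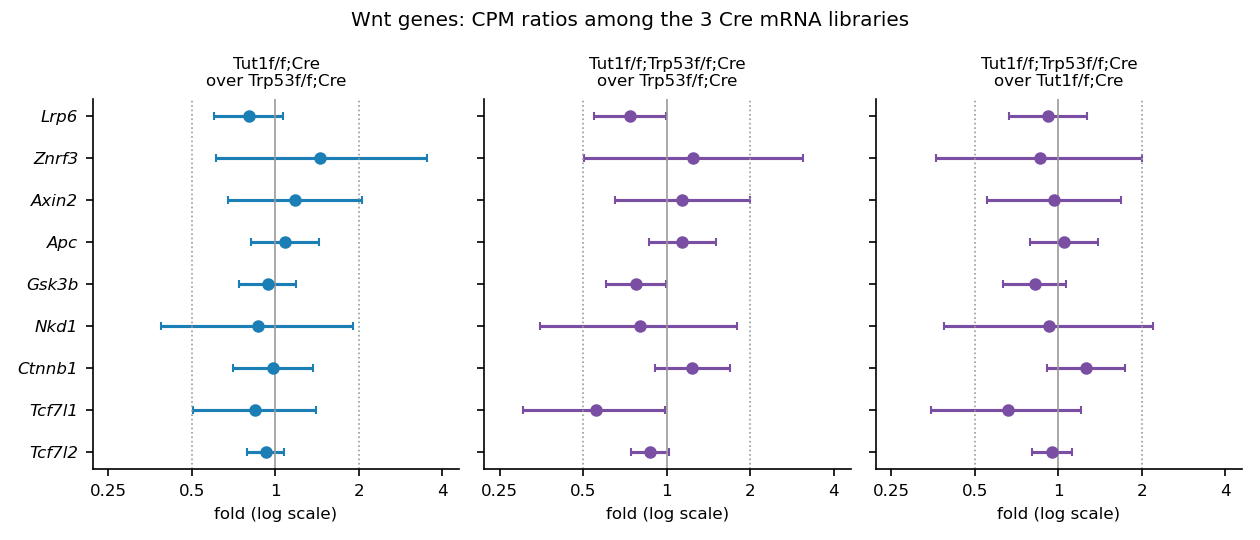
Ratio of each Wnt gene's CPM between Cre mRNA libraries (x axis, log scale), 1 panel for each pair. Points are ratios with exact 95% counting intervals, the solid line marks 1 and dotted lines mark 0.5 and 2. No point lies beyond the dotted lines, and Tcf7l1 in the middle panel is the farthest from 1 at 0.555.

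The test across genes was an additive edgeR model with a term for the Tut1 and one for the Trp53 genotype, which left 1 residual degree of freedom over 4 libraries. For Tut1 status it called 0% of 9882 genes at an FDR under 0.05 and at least 2-fold, with 171 genes at an unadjusted p under 0.05 (DESeq2, 0 calls and 79). For Trp53 status it called 1 gene, 0.0101% of those tested, with 147 at an unadjusted p under 0.05 (DESeq2, 1 call and 72). The gene called by edgeR was not Trp53 itself, which had a log2 fold change of -2.81 (SE 0.670, edgeR FDR 0.0922). Tut1 was not called for Tut1 status either, at -0.09 (SE 0.778). Axin2 and Znrf3, which passed the filter through the Cre mRNA libraries, are set aside here. Of the 7 other members, edgeR and DESeq2 called 0 for either status, and 1 and 0 had an unadjusted edgeR p under 0.05. Apc came nearest, with a log2 fold change of 1.18 (SE 0.602, edgeR FDR 1) for Tut1 status and 1.07 (SE 0.602, edgeR FDR 0.9998) for Trp53 status. The model had no term for Cre mRNA, so a rise shared by all Cre mRNA libraries is spread over both status terms and the residual. These fold changes therefore cannot be read as effects of either genotype. The 0 calls do not bear on such a shared rise. Tcf7l2 had 0.62 (SE 0.516) and 0.74 (SE 0.517), and Ctnnb1 had -0.01 (SE 0.568) and 0.01 (SE 0.568). In simulated libraries with 200 genes changed 8-fold in Tut1 status this fit recovered 162 of them among 9544 genes. Smaller changes, and a rise shared by the Cre mRNA libraries, were not simulated for this fit.

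Isoforms of the other members were described next. The 9 genes had 35 isoforms, of which 20 carried the name of a read, 7 had an Ensembl transcript name with a suffix and 8 the plain name. The suffix was taken to mark a variant of that transcript, which is inferred from the name and not stated in the sources used here. Variants held 55.2% of the members' reads, read-named isoforms 25.9% and plain transcripts 18.8%. Against the control, an isoform was counted when its share of the gene's reads differed by at least 10 percentage points and the Wilson 95% intervals did not overlap. This held for 2 of 16 member isoforms in the Tut1-labelled library (8.27% of all isoforms), 5 of 15 in the Trp53-labelled library (8.61%) and 3 of 15 in the Tut1/Trp53-labelled library (6.7%).

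Apc had 9 isoforms. One read-named isoform made up 39.3% (23.6 to 57.6) of its 28 reads in the control and 5.94% (2.75 to 12.4), 2.83% (0.967 to 7.99) and 10.4% (5.89 to 17.6) in the others. The read-named isoform with most reads went the other way, from 7.14% (1.98 to 22.6) in the control to 29.7% (21.7 to 39.2), 39.6% (30.8 to 49.1) and 30.2% (22.3 to 39.5), and passed in the Trp53-labelled library. Apc-208, a retained intron transcript (ENSMUST00000170195), was at 21.4%, 24.8%, 30.2% and 18.9%, with overlapping intervals.

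In Ctnnb1 the protein-coding Ctnnb1-201 (ENSMUST00000007130, chromosome 9, 120933400 to 120960507, plus strand) made up 76.5% (68.1 to 83.2), 83.1% (72.7 to 90.1), 86.6% (77.6 to 92.3) and 73.0% (63.0 to 81.2). A read-named isoform made up 18.5% (12.5 to 26.4) in the control against 2.82% (0.776 to 9.70), 2.44% (0.671 to 8.46) and 8.99% (4.63 to 16.7), and passed as lower in the first 2 of these but not in the Tut1/Trp53-labelled library. Ctnnb1-215, a retained intron transcript at the 3′ end (ENSMUST00000215573, 120959216 to 120960507), made up 5.04% (2.33 to 10.6) in the control. It reached 14.1% (7.83 to 24.02), 11.0% (5.88 to 19.6) and 17.98% (11.4 to 27.2) in the others and passed in the Tut1/Trp53-labelled library.

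Tcf7l2 had 13 isoforms, the most of the group. The variant of Tcf7l2-210 (ENSMUST00000111657, chromosome 19, 55742342 to 55932195, plus strand) led with 80.8% (73.7 to 86.4) in the control and 69.7% (64.2 to 74.6), 61.0% (55.9 to 65.8) and 61.8% (56.1 to 67.3) in the others, and passed in the last 2. A read-named isoform held 5.48% (2.80 to 10.4) in the control against 12.3% (9.08 to 16.5), 17.6% (14.1 to 21.8) and 13.8% (10.2 to 18.3), and passed in the Trp53-labelled library. Its 3 retained intron transcripts together were at 4.11% (1.90 to 8.68), 7.33% (4.89 to 10.9), 10.03% (7.36 to 13.5) and 13.1% (9.64 to 17.5).

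Gsk3b and Lrp6 were each led by a variant of their long protein-coding transcript. The variant of Gsk3b-201 (ENSMUST00000023507, chromosome 16, 38089001 to 38246084, plus strand) was at 80.3%, 90.3%, 81.5% and 87.3%. The variant of Lrp6-201 (ENSMUST00000032322, chromosome 6, 134446476 to 134566913, minus strand) was at 88.1%, 97.6%, 89.9% and 98.7%. Lrp6-205, a retained intron transcript (ENSMUST00000203235), had 5, 2, 12 and 1 reads. Nkd1 was listed under a variant of Nkd1-201 alone and Tcf7l1 under 1 read-named isoform alone. Znrf3 had 2 read-named isoforms, 1 of which held 39 of its 40 reads.

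**Figure D5:**
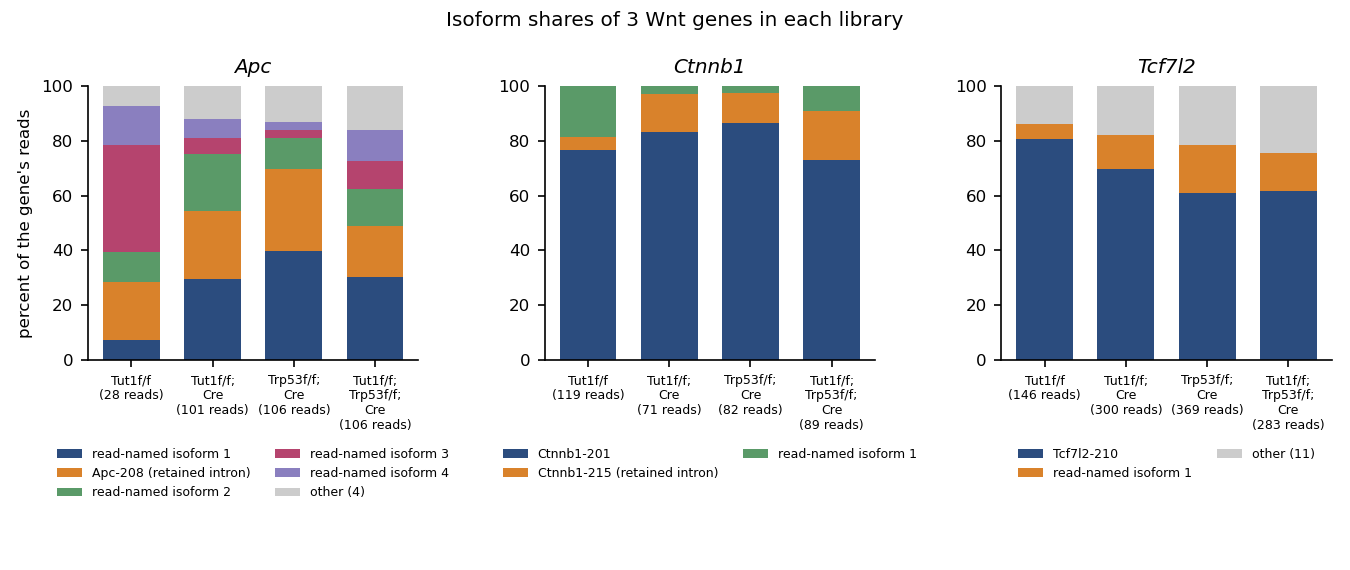
Share of each isoform in the reads of Apc, Ctnnb1 and Tcf7l2 (y axis, percent) in each library (x axis, with the gene's reads). Colours are isoforms with at least 10% in a library and light grey is the sum of the others. The Apc isoform at 39.3% in the control is at 2.83% to 10.4% elsewhere, and Tcf7l2-210 is below its 80.8% of the control in every Cre mRNA library.

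Between Cre mRNA libraries read numbers were compared by a two-sided Fisher's exact test of each isoform, a test of the libraries and not of the conditions. It called 0 of 20 member isoforms between the Tut1- and Trp53-labelled libraries (0.182% of all isoforms), 0 of 22 between the Tut1/Trp53- and Trp53-labelled libraries (1.13%) and 0 of 21 between the Tut1/Trp53- and Tut1-labelled libraries (0.112%). The smallest FDR of a member isoform by this exact test was 0.519, 0.260 and 0.486, with differences of up to 12.8, 13.6 and 19.95 percentage points, the first and last of them in Axin2.

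Other genes of the pathway came from a list of 106, of which 55 had an entry and 41 were tested. Only 4 of 23 ligands had an entry and 1 was tested, whereas 17 of 20 cytoplasmic transducers and 10 of 13 nuclear cofactors had one. By the ratio rule 8 were higher and 2 lower than the control in the Tut1-labelled library, 9 and 3 in the Trp53-labelled library and 7 and 2 in the Tut1/Trp53-labelled library. Their median log2 ratios were 0.32, 0.22 and 0.00. Against the shares over all genes given above, more of the 41 were higher and fewer were lower, in counts too small to read further. No gene of the 41 was called by edgeR for Tut1 or Trp53 status, and 0 had an unadjusted p under 0.05.

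Nuclear cofactors were among the higher genes. Bcl9, which links beta-catenin to transcription, was at 5.51, 26.0, 28.5 and 25.5 CPM, or 4.73-fold (2.92 to 7.98), 5.18-fold (3.24 to 8.65) and 4.62-fold (2.84 to 7.81) above the control. Tle4, a Groucho corepressor of TCF factors, was at 24.3, 73.5, 74.1 and 66.3 CPM, and 3.03-fold (2.37 to 3.88), 3.05-fold (2.41 to 3.899) and 2.73-fold (2.13 to 3.52) above it. Tle1, of the same family, passed in the last 2 libraries at 2.19-fold (1.38 to 3.54) and 2.05-fold (1.27 to 3.37). The receptor Fzd1 was at 6.51, 21.03, 30.3 and 17.7 CPM, with ratios of 3.23 (2.02 to 5.32), 4.66 (3.00 to 7.46) and 2.73 (1.68 to 4.54).

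The cytoplasmic group held genes in both directions by named entries alone. Amer1, which recruits the destruction complex to the membrane, was 2.001-fold (1.13 to 3.603), 2.99-fold (1.80 to 5.14) and 2.74-fold (1.61 to 4.79) above the control. Tnks, a tankyrase that marks Axin for degradation, was 2.22-fold (1.64 to 3.02) and 2.09-fold (1.55 to 2.83) above it in the first 2. Csnk1g1 passed in the Tut1-labelled library at 2.61-fold (1.82 to 3.79), and Csnk1e in the Trp53-labelled library at 2.20-fold (1.94 to 2.51). The casein kinase Csnk1d was lower in all 3, at 0.341 (0.208 to 0.538), 0.413 (0.269 to 0.619) and 0.342 (0.209 to 0.540) of the control. Btrc, the ubiquitin ligase subunit that takes up phosphorylated beta-catenin, was lower in the first 2, at 0.452 (0.306 to 0.656) and 0.368 (0.246 to 0.539). With unnamed entries on exons added, none of the lower calls of this group held. Csnk1d was then at 0.667 (0.470 to 0.936), 0.599 (0.423 to 0.838) and 0.669 (0.472 to 0.939), and Btrc at 0.886 (0.658 to 1.19) and 0.681 (0.499 to 0.924). Amer1 also lost its calls, at 1.02, 1.33 and 1.04, whereas Bcl9, Tle4 and Fzd1 passed in all 3 libraries by both counts.

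Of targets and other receptors, Emx2, a regulator of cortical progenitors, was 2.18-fold (1.39 to 3.48), 2.81-fold (1.85 to 4.36) and 2.19-fold (1.39 to 3.49) above the control. Cd44 was lower in the Trp53-labelled library, at 0.459 (0.240 to 0.835). Lgr5, a receptor for R-spondins, passed in the Tut1-labelled library at 2.03-fold (1.14 to 3.71) and Ryk in the Tut1/Trp53-labelled library at 2.04-fold (1.14 to 3.72). Porcn, the acyltransferase needed for ligand secretion, was lower there, at 0.430 (0.179 to 0.938). With unnamed entries on exons Emx2 passed in the Trp53-labelled library alone, at 2.61-fold, Porcn was unchanged at 0.430, and the calls of Cd44 (1.18), Lgr5 (1.74) and Ryk (0.863) were lost, with Cd44 and Ryk on the other side of 1. Among the Cre mRNA libraries 6 differences passed by named entries, 0, 4 and 2 of the 41 in the 3 pairs, which is near the shares of all genes given above and is read no further. The Tut1/Trp53-labelled library had more Btrc (2.06-fold, 1.35 to 3.18) and Cd44 (2.28-fold, 1.21 to 4.44) and less Porcn (0.427, 0.175 to 0.952) than the Trp53-labelled library, and less Lgr5 (0.407, 0.196 to 0.798) than the Tut1-labelled library. The other 2 were of Sostdc1, a secreted inhibitor with 1 read in the Tut1/Trp53-labelled library. With unnamed entries on exons the calls of Btrc (1.42), Cd44 (1.16) and Lgr5 (0.502) were lost, and Porcn passed at 0.3796 against the Trp53-labelled and 0.430 against the Tut1-labelled library.

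Genes with the profile most like that of Axin2 were taken by the Euclidean distance between centred log2 CPM profiles over the 4 libraries, among 7573 genes with at least 100 reads. They were Ago2 (distance 0.086), Hist1h2ak (0.159), Nbea (0.171), Pan3 (0.180) and Son (0.216). Ago2, the slicing Argonaute protein, had 10, 63, 59 and 56 reads, and Son, a nuclear speckle protein, had 715, 3500, 2923 and 3120. Hist1h2ak shares sequence with other histone genes and its counts are uncertain. Of the members, Apc was nearest at a distance of 0.441 and Ctnnb1 farthest at 2.51. All profiles rest on the same 4 libraries, and the likeness is a description.

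Promoters were searched for the letters CTTTGA and CTTTGT, forms of the core bound by TCF/LEF factors, on both strands of the 250 bases before the annotated start. RefSeq on GRCm38.p6 gave 12 promoters for 7 of the members. Lrp6 and Znrf3 had none, and Apc was left out of these counts. Of the 12, 4 promoters, 1 each of Gsk3b, Tcf7l1, Tcf7l2 and Lef1, held either motif. Over all 32851 promoters 27.6% held one. CTTTGA was in 13.8% and CTTTGT in 16.5%. The promoters of Axin2, Gsk3b and Tcf7l1 are shown because all 3 genes passed the ratio rule in the Tut1- and Trp53-labelled libraries while their promoters differed in this search, and capitals mark a match.
Axin2 promoter, chr11:108920099-108920348, plus strand: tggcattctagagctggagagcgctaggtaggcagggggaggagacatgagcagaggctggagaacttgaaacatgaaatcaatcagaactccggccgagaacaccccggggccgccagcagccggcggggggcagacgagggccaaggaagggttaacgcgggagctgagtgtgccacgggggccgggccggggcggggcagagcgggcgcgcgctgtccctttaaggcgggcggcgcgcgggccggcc
Gsk3b promoter, chr16:38088751-38089000, plus strand: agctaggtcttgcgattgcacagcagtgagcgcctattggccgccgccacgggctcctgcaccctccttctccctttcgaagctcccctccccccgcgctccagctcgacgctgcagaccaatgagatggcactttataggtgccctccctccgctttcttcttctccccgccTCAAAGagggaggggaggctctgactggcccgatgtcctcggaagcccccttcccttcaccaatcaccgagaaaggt
Tcf7l1 promoter, chr6:72789046-72789295, minus strand: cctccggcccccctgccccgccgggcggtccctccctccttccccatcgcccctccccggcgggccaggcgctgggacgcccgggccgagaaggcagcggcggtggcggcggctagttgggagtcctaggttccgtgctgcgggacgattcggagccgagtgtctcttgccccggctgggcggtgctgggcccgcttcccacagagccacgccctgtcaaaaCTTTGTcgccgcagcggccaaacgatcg
The match in Gsk3b began 77 bases before the start, on the opposite strand, and that in Tcf7l1 28 bases before it. A match is a description of letters and not of binding, and the absence of a match in Axin2 holds only for this window.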

How the data were processed

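The authors deposited 1 table of whole-number read counts per isoform, not normalized, with 1 column for each of the 4 libraries. The submitters' processing notes name mm10. The counting tool and its filters for this table are not given in the sources used here. Of 255164 entries, 46637 name an Ensembl gene, and 208527 give only a position. Gene counts were sums of isoform counts per gene, with symbols and positions (1-based) from GENCODE M21 on GRCm38, the same build. Gene reads numbered 2863392 to 4244467 per library. R 4.3.3 with edgeR 4.0.16 gave TMM scaling, the expression filter and the quasi-likelihood test, and DESeq2 1.42.0 was the alternative. Ratios of single libraries have exact conditional binomial 95% intervals, levels exact Poisson 95% intervals and shares Wilson 95% intervals. Isoform tests took isoforms with at least 10 reads over both libraries in genes with at least 20 in each. The edgeR fit for Tut1 status, the ratio rule and the exact test on isoforms were tested on simulated data.

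Named were all members, their isoforms with at least 10% of reads in a library or past a rule, other Wnt genes past the ratio rule with a mean of at least 20 reads, the 5 genes nearest to Axin2, Tut1 and Trp53. Sostdc1, Xist and single cell type markers were named after their values were seen. The members and lists were chosen with earlier results of these data known. Unnamed entries were given to a gene where their 1000-base position touched the exons of that gene alone. Python 3.11.15, scipy 1.17.1 and statsmodels 0.14.6 were used.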

Additional observations from a re-analysis of the deposited data

Results flagged for a closer look

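Entries that named no gene but lay inside the 10 genes were data outside the gene counts, and they held higher CPM in each Cre mRNA library than in the control. Summed over 333 entries they came to 402.4 CPM (exact 95% interval 383.0 to 422.6) in the control, 1153 (1114 to 1192) in the Tut1-labelled, 1149 (1113 to 1185) in the Trp53-labelled and 1046 (1009 to 1083) in the Tut1/Trp53-labelled library. The ratios to the control were 2.86 (2.70 to 3.04), 2.86 (2.69 to 3.03) and 2.60 (2.45 to 2.76), beside 1.94, 1.86 and 1.63 over all unnamed entries of the table. No test was made of these single libraries.

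The excess was larger for the 273 entries whose position touched no exon of the gene, at 116.6, 613.0, 586.9 and 579.4 CPM. Znrf3 had 98, 410, 421 and 392 such reads, far more than the 3, 14, 11 and 12 reads of its named isoforms. Apc had 107, 687, 687 and 698, and Tcf7l1 had 30, 120, 135 and 110. Nkd1 had 9, 7, 9 and 8 and Axin2 had 0, 1, 2 and 1, so these genes gave few. Over the 2878 tested genes with at least 100 such reads the median ratio to the control was 3.74, 3.34 and 3.14, and over the 6 members among them it was 4.87, 4.53 and 4.06, with a pseudocount of 0.5 reads. The excess was thus seen over genes in general and its part in the members' ratios was not tested.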

How the results depend on the processing

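The limit here is depth and the single library of each kind. Axin2, Znrf3, Nkd1 and Tcf7l1 had 39 reads or fewer in every library, and control counts of 3 and 4 reads set the width of the Znrf3 and Axin2 ratios. No paired analysis was possible because each genotype had 1 library. With library totals or DESeq2 size factors in place of TMM, all 54 ratios of the 9 genes over 6 comparisons moved by less than their counting interval. Library totals moved the median of all genes by 0.10, 0.07 and 0.15 on the log2 scale in the comparisons with the control.

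The counts of members past the ratio rule in the comparisons with the control (7, 7 and 5) became 4, 4 and 3 of the 5 members with a mean of at least 50 reads, where 8.99%, 9.96% and 6.89% of all such genes were higher. They were 2, 2 and 2 with plain Ensembl transcripts only, which keep 4 of the genes and 18.8% of the members' reads, beside 8.17%, 7.88% and 6.47% of all genes. Relative to genes of similar length the count for the Trp53-labelled library was 4, beside 10.5% of all genes higher. With unnamed entries on exons relative to all reads, an alternative added after seeing the data, it was 4 as well, beside 10.5% of all genes. Plain transcripts also gave 1 member between the Tut1- and Trp53-labelled libraries and 1 between the Tut1/Trp53- and Trp53-labelled libraries, and a limit of 1.5-fold gave 1 in the latter. None of these was higher. The share of all genes lower by these settings is not given here, so the counts are not a result about these genes. The log2 ratio of Lrp6 to the control reversed with plain transcripts, to -0.91 and -1.90 in the Tut1- and Tut1/Trp53-labelled libraries, where only the retained intron transcript Lrp6-205 remained. Other Wnt genes past the rule numbered 18, 19 and 15 against the control at 1.5-fold, and 3, 9 and 6 among the Cre mRNA libraries. In the Tut1-labelled library they numbered 5 with plain transcripts and 6 with unnamed entries on exons. In the Trp53-labelled library they were 7 with plain transcripts and 7 at a mean of 50 reads, and in the Tut1/Trp53-labelled library 4 at that mean and 5 with unnamed entries, which left 0 of them lower in the first 2 libraries and 1 in the last. Between the Tut1/Trp53- and Trp53-labelled libraries they were 1 at a mean of 50 reads and 2, both lower, with unnamed entries, and between the Tut1/Trp53- and Tut1-labelled libraries 0 at that mean.

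Member isoforms past the usage rule numbered 1, 2 and 1 at 20 points, and 1 and 3 in the first 2 comparisons for genes with at least 50 reads in each library. The shares of all isoforms under these settings are not given here, so these counts are read no further. Unnamed entries off annotated exons had ratios to the control of 5.26, 5.03 and 4.97. With edgeR, leaving out 1 library forced a fit on 1 term. Calls for Tut1 status then ranged from 0 to 12 genes, with 12 without the control and 6 without the Trp53-labelled library, and no members. Calls for Trp53 status ranged from 0 to 1474 genes and from 0 to 4 members. The upper ends of both ranges came without the Tut1-labelled library, when the contrast was both remaining Cre mRNA libraries against the single control. Axin2 was chosen from that contrast, so these calls are not a test of Axin2 or of the group. The log2 fold changes there were 2.23 for Apc, 3.08 for Axin2, 1.52 for Lrp6 and 1.46 for Tcf7l2. Without the control 15 genes were called, without the Trp53-labelled library 4 and without the Tut1/Trp53-labelled library 0. Without the filter on low counts 2 genes were called for Trp53 status. In all of these fits the cause was not tested. All other alternatives run left the reported counts within 1.5 times. Of the single-gene ratios, 12 stayed within their interval with plain transcripts, 10 left it and 2 reversed, while with unnamed entries on exons 46 stayed and 8 left it.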

Other observations

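Lef1, a TCF/LEF factor and Wnt target, had 4 unnamed entries inside its gene, none of which touched an exon. They held 7, 6, 10 and 12 reads in the control, Tut1-, Trp53- and Tut1/Trp53-labelled libraries, and the strand of these reads is not known.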
